A study of Homo sapiens with 18 samples.

Results

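The genes described here are the axon guidance ligands and receptors of human pancreatic progenitors, chosen by gene symbol alone: semaphorins, plexins, neuropilins, ephrins, Eph receptors, Slits, Robos, netrins, UNC5 receptors and DCC. The rule found 67 of the 21944 genes in the table, and all 67 were listed at each of the 3 times. The same held for 14431 of the 15355 protein-coding genes of the table. Of the 69 protein-coding genes with such symbols in the GENCODE v44 annotation, *EPHA3* and *ROBO4* were not analysed here. The study reseeded progenitors at day 19 of differentiation on fibronectin (FN) or on laminin-411 (LN411) and collected them for bulk RNA sequencing 3, 6 or 24 h later, with 3 samples in each of the 6 groups and 18 samples in all. The labels give the cell line as HUES4, a human embryonic stem cell line, while their growth protocol names NGN3-GFP cells derived from the SA121 line. The paper describes this RNA sequencing as one of NGN3-GFP-derived progenitors, which goes with the growth protocol and not with the HUES4 label. All groups were detached with accutase and replated, and no group of cells left in place was among the 18 samples. What the values are sets what can be said. The table holds for each gene 1 mean normalized count, which the authors averaged over samples after scaling them for depth, and their own comparisons of LN411 with FN, which were not used here. Over all genes this mean changed between the 3 times by a relative 4.89e-07 at most, so it is 1 value for the whole series. No single-sample values were analysed here. The levels below therefore pool both matrices and all times, have no error of their own, and say nothing of a difference between LN411 and FN. The depth of each library is unknown. In bulk RNA, fewer cells of a type and less RNA per cell cannot be told apart.

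Axon guidance molecules were named for steering growing nerve fibres, but the same ligands and receptors act wherever neighbouring cells adhere, repel or sort from each other. Semaphorins signal through plexins, with neuropilins as partners for the secreted forms. Ephrins are held on the cell surface and bind Eph receptor tyrosine kinases on the next cell, with signals running in both directions. Slits are secreted and bind Robo receptors, and netrins bind DCC and UNC5 receptors. Netrins share their amino-terminal domains with laminins, the family of matrix proteins to which LN411 belongs. In the mouse pancreas, Slit and Robo signalling has been tied to the identity of progenitors.

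To compare genes with each other, each mean normalized count was divided by the length of the gene's exons in kilobases, and this level per kilobase is the quantity given below unless a count is named. The 67 genes ranged in level from 2.23 per kilobase for *EPHA8* to 2645 for *PLXNB2*, with a median of 220.4. Over the 15355 protein-coding genes of the table the median level was 194.1 per kilobase. Of the 67 genes, 36 (53.7%) reached that median, 16 (23.9%) reached the 75th percentile of protein-coding genes at 561.6 per kilobase, and 6 (8.96%) reached the 90th percentile at 1327. The guidance genes as a set thus spread over protein-coding genes at shares close to those that define these percentiles. On the scale of mean normalized counts, 57 of the 67 genes reached 100 and 38 reached 1000. These numbers were near those of protein-coding genes in general. From 10 to 100 lay 14.9% of guidance genes and 16.4% of protein-coding genes. From 100 to 1000 the shares were 28.4% and 27.7%, and from 1000 to 10000 they were 47.8% and 44.9%. A mean normalized count of 10000 or more was seen in 6 genes (8.96%), against 6.37% of protein-coding genes, and no guidance gene fell below 10, against 4.57% of them. The exons of the guidance genes were longer than those of other genes, with a median of 6.995 kb against 5.218 kb. The 5 genes with the highest levels per kilobase made up 34.2% of the summed level of all 67, and the first 10 made up 54.7%.

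The semaphorin system, with its 31 genes, held 59.1% of the summed level per kilobase, and the 21 genes of the ephrin system held 33.9%. The Slit system with 6 genes held 3.54% and the netrin system with 9 genes 3.51%. How ligands and receptors compared in sum depended on the length used. Per kilobase of exon the 35 ligand genes held 50.4% of the sum and the 32 receptor genes 49.6%, but with the longest coding sequence the ligands held 60.0%, and with the longest transcript 48.7%. The 20 semaphorins held 48.9% of the sum of their system per kilobase of exon, with 7994 against 8345 for their 11 receptors, and 57.7% per kilobase of coding sequence, so that the order of ligands and receptors turned. In the ephrin, netrin and Slit systems it did not turn. The ephrins held 58.7% of the sum of their system per kilobase of exon. With the longest transcript they held 55.0%, and with the longest coding sequence 70.8%. The netrins held 35.5%, 38.1% and 30.3% of theirs on these scales. The summed level of the 3 Robo receptors was 9.48 times that of the 3 Slits per kilobase of exon. These sums are of RNA and carry no error, and ligands secreted by cells outside the culture are not part of them.

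**Figure D1:**
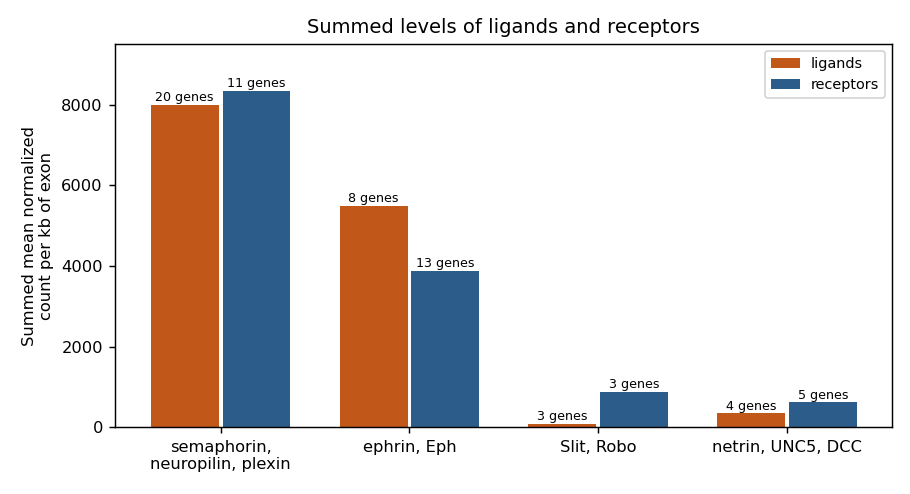
Summed mean normalized count per kilobase of exon (vertical axis, linear from 0) for the ligands and the receptors of each signalling system, with the number of genes above each bar. The bars are sums of the authors' pooled means over all samples and have no error; the semaphorin bars stand at 7994 and 8345, and the Slit bar at 93.4 beside 885.6 for the Robos.

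Secreted class 3 semaphorins were the most abundant semaphorin class in sum, and *SEMA3A* stood above every other semaphorin. *SEMA3A* (ENSG00000075213), which encodes a secreted repellent that acts through neuropilin 1 and A plexins, lies on chromosome 7 of GRCh38 from 83955777 to 84492724. Its mean normalized count was 15084 and its level 1629 per kilobase, at the 92.1 percentile of protein-coding genes. The next class 3 gene, *SEMA3C*, had a level of 828.3 per kilobase, and *SEMA3A* was 1.97 times as high. *SEMA3D* at 537.1 and *SEMA3F* at 422.4 per kilobase also lay above the median of protein-coding genes. *SEMA3B* (139.6), *SEMA3E* (24.2) and *SEMA3G* (13.2) lay below it. *SEMA3E*, whose product binds plexin D1 without a neuropilin, had a mean normalized count of 204.3, and *SEMA3G*, the lowest of the 20 semaphorins, had one of 66.8.

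The membrane-bound semaphorins were spread over a similar range. Class 6 genes, which encode transmembrane proteins and ligands of A plexins, gave the next highest members of the family per kilobase of exon. The class 3 gene *SEMA3C* was close behind at 828.3 per kilobase. It stood above *SEMA6B* by count, with the longest transcript and per kilobase of coding sequence. *SEMA6B* had a level of 865.3 per kilobase and a mean normalized count of 4075, and *SEMA6A* a level of 834.2 and a count of 9098. These levels differ by a factor of 1.04, and whether they differ beyond the spread between samples cannot be told from pooled means. Their order also turns with the scale. *SEMA6A* was higher by count, with the longest transcript, and per kilobase of coding sequence, at 2896 against 1530 for *SEMA6B*. *SEMA6C* was at 477.9 per kilobase and *SEMA6D* at 100.2. Class 4 had 6 members from 15.9 per kilobase for *SEMA4A* to 747.8 for *SEMA4C*, whose product is a ligand of plexin B2. *SEMA4G* (536.0), *SEMA4B* (371.6) and *SEMA4F* (220.4) lay above the median of protein-coding genes, and *SEMA4D*, a ligand of plexin B1, lay below it at 122.0. Of the exon length of *SEMA4G*, 28.0% lies over exons of other genes on the opposite strand, mostly those of *MRPL43*, which leaves its level less certain. Neither class 5 member reached the median, with 57.9 per kilobase for *SEMA5B* and 17.6 for *SEMA5A*. The single class 7 gene *SEMA7A*, which encodes a lipid-anchored protein and ligand of plexin C1, was at 32.9 per kilobase.

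The receptors of semaphorins were led by B plexins. *PLXNB2* (ENSG00000196576, chromosome 22, 50274979 to 50307646) had the highest level of all 67 genes, at 2645 per kilobase and the 95.6 percentile, with a mean normalized count of 19232. *PLXNB1*, which encodes the receptor of semaphorin 4D, followed at 1880 per kilobase with a count of 18366. The third B plexin, *PLXNB3*, was the lowest of the 9 plexins at 6.70 per kilobase and a count of 46.9, which is 395.0 times below *PLXNB2*. Of the exon length of *PLXNB3*, 20.4% lies in exons of *SRPK3* on the same strand, so that its reads are less certain. A plexins ran from 1335 per kilobase for *PLXNA1*, with a count of 14995, through 484.3 for *PLXNA3* and 246.0 for *PLXNA2*, down to 19.7 for *PLXNA4*. *PLXND1* was at 279.4 per kilobase and *PLXNC1* at 158.0. Plexin genes thus held both the highest level of the whole set and 2 of the low ones, with 6 of 9 at or above the median of protein-coding genes.

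Both neuropilins were above that median. Neuropilin 1, which is also a partner of the receptors of vascular endothelial growth factor, was encoded at 1014 per kilobase by *NRP1* (chromosome 10, 33177492 to 33336262), with a mean normalized count of 11688. *NRP2* had a level of 277.0 per kilobase and a count of 3849. *NRP1* was 3.66 times as high as *NRP2*. The secreted semaphorins exceeded the neuropilins in summed level by a factor of 2.78 per kilobase of exon, 2.14 per kilobase of coding sequence and 1.72 per kilobase of the longest transcript.

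**Figure D2:**
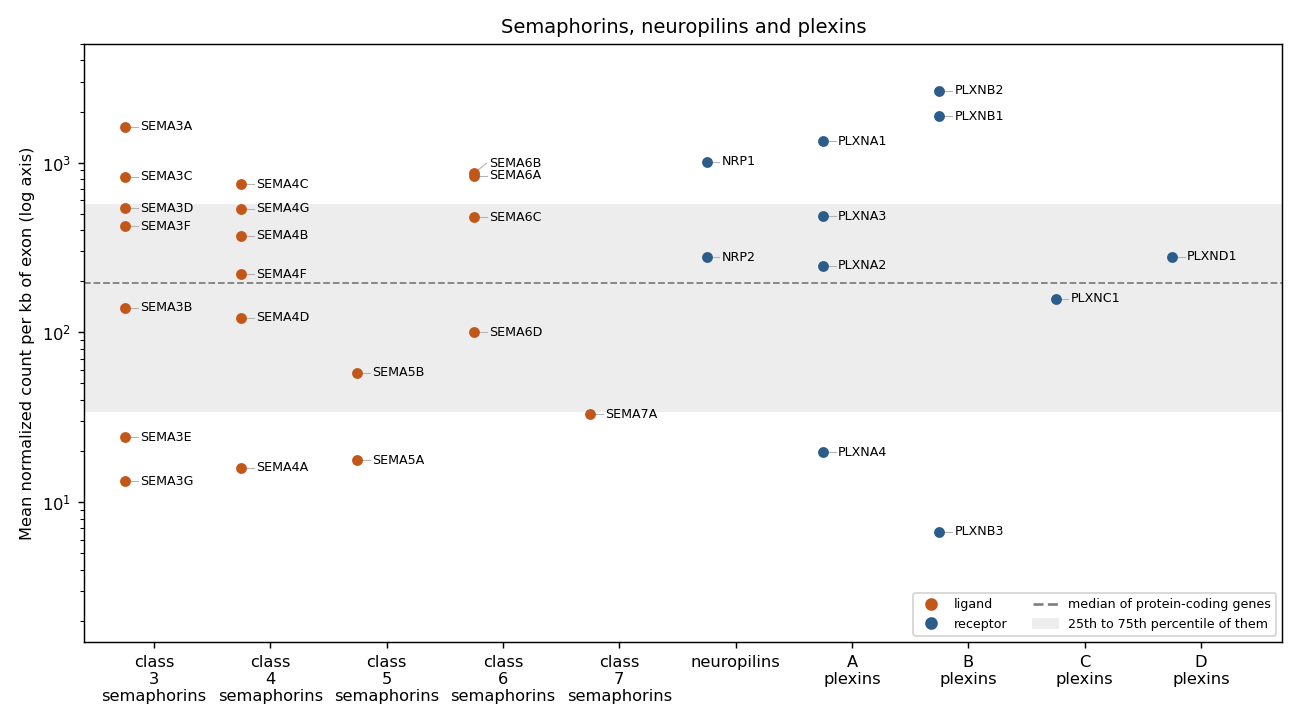
Mean normalized count per kilobase of exon (vertical axis, log scale) of 31 semaphorin, neuropilin and plexin genes, grouped by class, with ligands in orange and receptors in blue. Each point is the authors' mean over all samples without error; the dashed line is the median of 15355 protein-coding genes at 194.1 and the band their 25th to 75th percentile, and *PLXNB2*, *PLXNB1* and *SEMA3A* stand highest while *PLXNB3* stands lowest.

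Ephrin levels were spread less widely than those of Eph receptors. All 8 had mean normalized counts above 100, and 6 of them lay at or above the median level of protein-coding genes. The 3 B ephrins, which cross the membrane and can signal into the cell that carries them, were all above it. *EFNB2* (ENSG00000125266, chromosome 13, 106489745 to 106535662) led with 1355 per kilobase and a count of 6783. *EFNB3* followed with 1214 per kilobase and a count of 3905, and *EFNB1* with 527.7 and 1743. Among the 5 A ephrins, which are anchored by a lipid, *EFNA4* was at 1232 per kilobase with a count of 1549, and *EFNA1*, a main ligand of EphA2, at 676.9. *EFNA2* was at 228.8, *EFNA5* at 143.2 and *EFNA3*, the lowest ephrin, at 119.3 per kilobase with a count of 231.9. From the highest to the lowest ephrin the level fell 11.4-fold, against 876.6-fold among Eph receptors. The ratio of the first ephrin, *EFNB2*, to the second, *EFNA4*, was 1.10 per kilobase of exon, too close for an order to be read from means without error. The second place depends on the length used. Per kilobase of coding sequence *EFNB3* came second at 3828, against 6790 for *EFNB2* and 2495 for *EFNA4*, and it was also second by count.

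Some ephrin values rest on exons shared with other genes. Exons of a readthrough gene, *EFNA4-EFNA3*, cover 43.9% of the exon length of *EFNA3* and 15.0% of that of *EFNA4* on the same strand. A long non-coding RNA gene on the other strand, ENSG00000284966, covers 36.4% of *EFNB2*. These overlaps are those of GENCODE v44, and they may differ in the older annotation with which the authors counted. Reads from such bases may have been left uncounted, and their part in these levels was not tested.

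Levels of the 13 Eph receptors ranged widely. Per kilobase of exon 7 of them reached the median of protein-coding genes, and 9 had mean normalized counts of 100 or more. *EPHB4* (ENSG00000196411, chromosome 7, 100802565 to 100827523), which encodes the receptor of ephrin B2, had the second highest level of all 67 genes. It was at 1959 per kilobase and the 93.7 percentile, with a mean normalized count of 12611, and it made up 50.6% of the summed level of the 13 Eph receptors. *EPHB4* was 7.82 times as high as the next EphB gene, *EPHB3*, at 250.6 per kilobase. *EPHB6*, whose product lacks kinase activity, was at 210.3 and *EPHB2* at 208.5, both just above the median of protein-coding genes. The second place depends on the length used. Per kilobase of coding sequence *EPHB2* came second at 824.6, against 4259 for *EPHB4* and 379.2 for *EPHB3*. *EPHB1* was at 26.5 per kilobase.

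EphA receptors were lower and more uneven. *EPHA2* led them with 646.3 per kilobase and a count of 2676, at 2.25 times the level of *EPHA1* (286.9 per kilobase, count 1347). *EPHA4*, whose product binds ephrins of both classes, was at 247.9. The other 5 EphA genes were all below 25 per kilobase, with *EPHA7* at 23.3, *EPHA5* at 4.90, *EPHA6* at 4.59, *EPHA10* at 3.78 and *EPHA8* at 2.23. Exons of a non-coding RNA gene on the same strand cover 11.0% of *EPHA6*. *EPHA8*, with a count of 12.1, had the lowest level of the 67 genes, at the 3.85 percentile. The sum of A ephrins was 1.97 times that of EphA receptors per kilobase of exon and 3.32 times per kilobase of coding sequence. For B ephrins over EphB receptors the ratio was 1.17 and 2.09 on these scales, and 0.944 with the longest transcript, so that its direction depends on the length used.

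In the Slit system, 1 of the 3 receptors and none of the 3 ligands reached the median of protein-coding genes. *ROBO1* (ENSG00000169855, chromosome 3, 78597239 to 79767998) had a level of 664.6 per kilobase, at the 78.8 percentile, and a mean normalized count of 7344. *ROBO2* was at 183.1 per kilobase, near the median, with a count of 3050. *ROBO3*, known from the crossing of commissural axons, was at 37.9 with a count of 264.2. *SLIT2* was at 69.3 per kilobase, above *ROBO3*, with a count of 766.8, *SLIT3* at 16.6 with 237.2 and *SLIT1* at 7.52 with 68.7. The ratio of summed Robos to summed Slits stayed between 9.48 and 10.6 with any of the 3 lengths.

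The netrin system was low apart from 3 genes. *NTN4* (ENSG00000074527, chromosome 12, 95657807 to 95791189), which encodes a netrin of basement membranes that binds laminins, had a level of 284.4 per kilobase and a count of 1242. It was 7.89 times as high as *NTN1*, the founding member of the family, at 36.0 per kilobase and a count of 231.2. *NTN3* was at 13.8 and *NTN5* at 10.8 per kilobase, with counts of 30.1 and 33.6. Among the receptors, *UNC5B* was at 328.6 per kilobase with a count of 2248 and *UNC5C* at 240.8 with a count of 2572, so that their order turns with the scale. *UNC5D* was at 32.2 per kilobase with a count of 347.2, and *UNC5A* at 4.46 with a count of 19.3. *DCC*, which encodes the receptor for attraction by netrin 1, was at 19.9 per kilobase with a count of 261.3. The summed level of the 4 UNC5 receptors, 606.0 per kilobase, was 30.4 times that of the 1 gene *DCC*. This ratio leaves out *NEO1*, a relative of *DCC* outside the chosen set, which was at 1093 per kilobase.

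**Figure D3:**
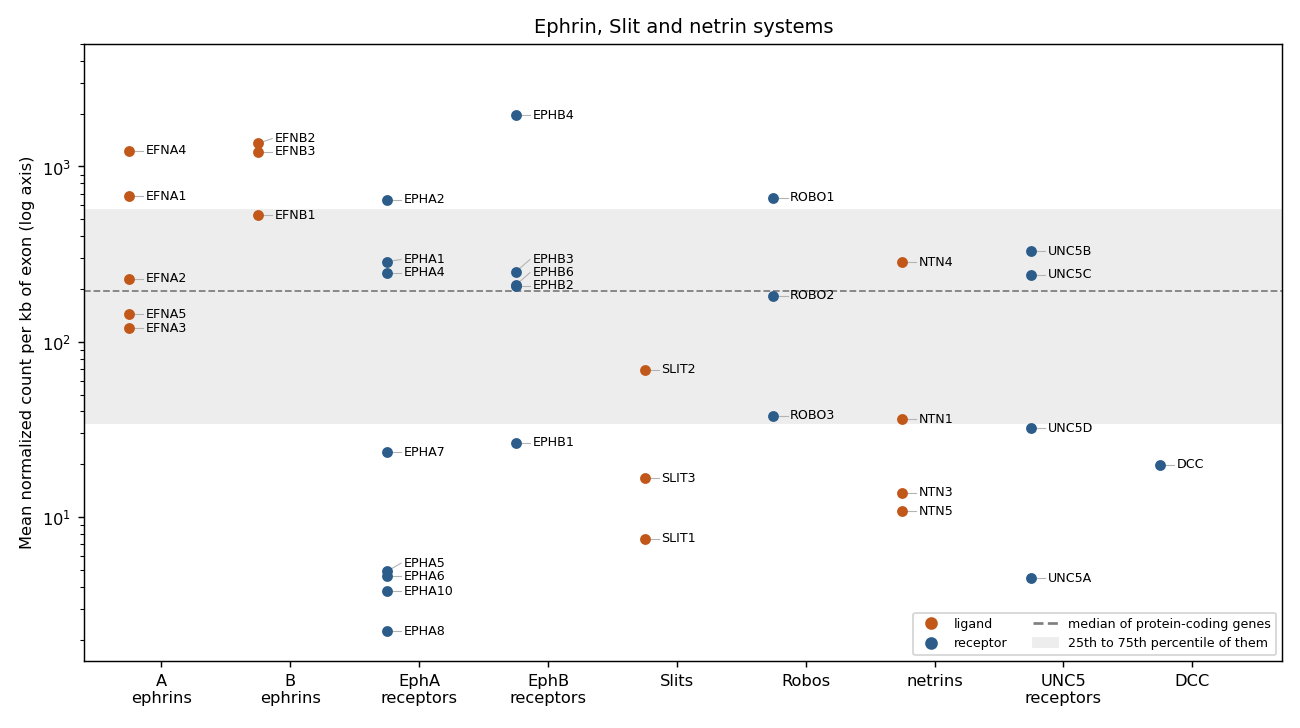
Mean normalized count per kilobase of exon (vertical axis, log scale) of the 36 genes of the ephrin, Slit and netrin systems, grouped by class, with ligands in orange and receptors in blue. Each point is the authors' mean over all samples without error; the dashed line and band are the median and the 25th to 75th percentile of protein-coding genes, with *EPHB4* highest, all 3 Slits below the line and 5 EphA genes below 25.

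The choice of length moved some genes more than others. Dividing by the longest coding sequence in place of the exons put *EFNB2* first and *SEMA3A* second, and moved *PLXNB2* from rank 1 to rank 6 and *PLXNB1* from rank 3 to rank 8. The first 10 genes shared 9 members between both scales. Plexins have long coding sequences, of 5.51 kb in *PLXNB2*, while that of *EFNB2* is 0.999 kb of 5.01 kb of exon. With coding length, 29 of the 67 genes reached the median of protein-coding genes on that scale. The 8 genes that no longer reached it were *EPHA1*, *EPHA4*, *EPHB3*, *EPHB6*, *NTN4*, *SEMA4F*, *PLXNA2* and *PLXND1*, and *EFNA5* was the 1 gene that came to reach it.

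**Figure D4:**
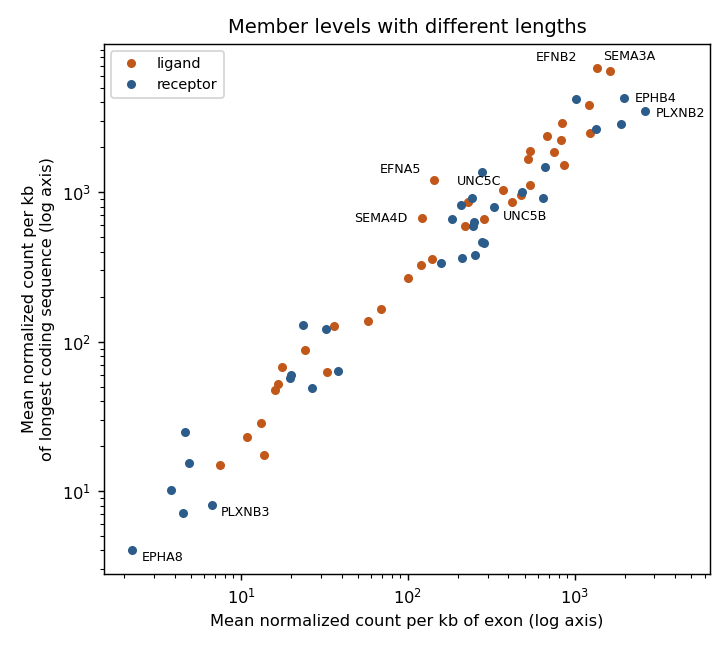
Level of each of the 67 genes per kilobase of exon (horizontal axis, log scale) and per kilobase of the longest coding sequence (vertical axis, log scale), with ligands in orange and receptors in blue and some genes named. Points are the authors' means over all samples; *PLXNB2* is farthest to the right at 2645, *EFNB2* is highest at 6790, and *EPHA8* is lowest on both axes.

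A list of 44 co-receptors and intracellular partners of guidance receptors gave the context inside the cell. All 44 were listed, and 24 reached the median level of protein-coding genes, which 50% of those genes reach by definition. A mean normalized count of 100 or more was seen in 40 of the 44. Among protein-coding genes 4.57% had a count below 10 and 16.4% one from 10 to 100. The median of the 44 partner genes was 314.7 per kilobase, against 220.4 for the guidance genes. The 5 highest were *NCK2*, an adaptor that binds B ephrins, at 3347 per kilobase, *DAG1*, the dystroglycan that binds Slits and laminins, at 2387, *FLRT3*, a partner of Robo and UNC5 receptors, at 1818, *ENAH*, a regulator of actin filaments, at 1226 and *ABL1*, a tyrosine kinase, at 1195. *NEO1*, which encodes neogenin, the relative of DCC, was at 1093 per kilobase, and was chosen after its value was seen. The 20 genes below the median ranged from *SRGAP3* at 157.6 per kilobase down to *CNTN2* at 0.685. Others among them were the netrin G genes *NTNG1* and *NTNG2*, at 1.37 and 3.82, and *RGMA* and *RGMB*, which encode ligands of neogenin, at 27.3 and 69.5.

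The markers of the labelled cell type were present. Of 10 pancreatic progenitor markers, 9 lay above the median of protein-coding genes, led by *GP2*, *SOX9* and *PDX1* at 33603, 5259 and 4969 per kilobase. The exception was *PTF1A*, with a mean normalized count of 12.5. None of 6 endothelial markers reached the median. They ranged from *CDH5* at 0.851 per kilobase, with a mean normalized count of 5.12, to *TIE1* at 24.9, with a count of 167.0. Of 8 neural and Schwann cell markers 5 were listed, all below the median, with *SOX10* at 3.36 and *STMN2* at 151.1 per kilobase. Mesenchymal markers were less uniform. Of 7, 6 were listed and 2 lay above the median, with *COL1A2* at 4172 and *COL1A1* at 454.2 per kilobase but *PDGFRA* at 90.9, *PDGFRB* at 15.9 and *LUM* at 87.9. Of 8 endocrine markers, 4 lay above the median, with *CHGA* at 1426, *SST* at 957.7 and *NEUROG3* at 289.0 per kilobase, while *INS* had a mean normalized count of 8.32. Of 3 pluripotency markers, *POU5F1* and *NANOG* were not listed, and *LIN28A* was listed at 2599 per kilobase. The part of these cell types in the levels of the guidance genes was not tested.

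**Figure D5:**
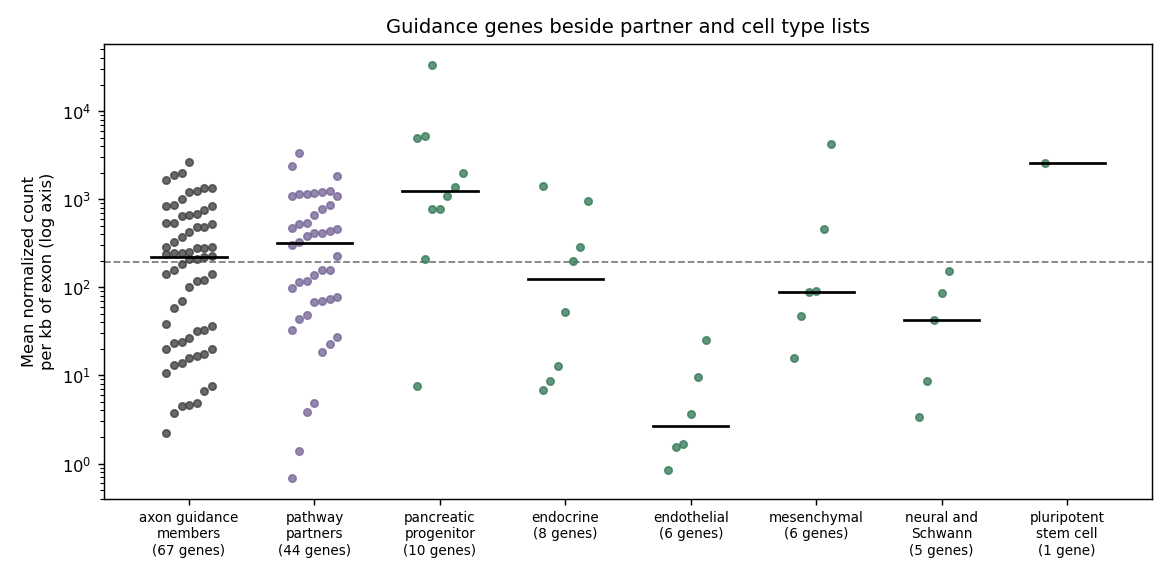
Mean normalized count per kilobase of exon (vertical axis, log scale) of the 67 guidance genes beside 44 pathway partners and 6 lists of cell type markers, with the number of listed genes under each. Points are genes, spread sideways only for legibility, black bars are medians and the dashed line is the median of protein-coding genes; the endothelial markers lie at or below 24.9, while 9 of 10 pancreatic progenitor markers lie above the line.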

How the data were processed

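Bulk polyA RNA sequencing of 18 samples was aligned by the authors to GRCh38.p13 with STAR 2.7.2d, counted per gene with the GENCODE v32 annotation and analysed with DESeq2 1.34.0. Whether counting used the strand is not given in the sources used here. The deposited signal used here is a mean normalized count, which the authors took over samples after division by size factors. A further 5 columns hold the authors' own comparisons of LN411 with FN (log2 fold change, its standard error, a test statistic, p-value and adjusted p-value) and were not used. No single-sample values were analysed here, so the count model planned for LN411 against FN was not run, no test was made, and no spread between replicates or depth per sample is given.

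Lengths and positions came from GENCODE v44 on GRCh38, matched by Ensembl identifier for 99.6% of the 21944 genes. The length of a gene was the union of its exons. Lengths and overlaps between exons of different genes may differ from those in the older annotation. Alternatives were the longest transcript, the longest coding sequence, no length, other genes to read against and other floors on the count. Length and percentile code was tested on simulated data. Calculations used Python 3.11.15, numpy 2.4.6 and pandas 2.3.3.

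The members and lists were chosen with earlier results of these data known. Values were to be given for the 3 highest members of each family whose mean normalized count reached 100, its lowest member, and all members of families of 5 or fewer, and those of the other members were added after they were seen. From the partner list, the 5 highest genes are named, and those at or below the median by range with examples.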

Additional observations from a re-analysis of the deposited data

How the results depend on the processing

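Pooled means without error limit all values above: an order between genes of like level cannot be read from them, and genes with low counts are the least certain. No paired analysis was possible because no values for single samples were analysed here, and for the same reason the planned fits of counts, their filters and the fits without single replicates were not run. With floors of 10 and 1000 in place of 100 on the mean normalized count, 67 and 38 genes passed against 57. The number of genes at or above the median lay between 29 and 43 over 6 alternatives, against 36. The leading gene of each of the 9 families with more than 1 member was unchanged with the longest transcript. With coding length or no length correction 8 of 9 leads were unchanged, and *UNC5C* took the place of *UNC5B*.

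The shares of the summed level moved with the length. With the longest transcript they were 62.5% for the semaphorin, 30.2% for the ephrin, 4.25% for the Slit and 3.08% for the netrin system. With the longest coding sequence they were 55.1%, 37.8%, 3.34% and 3.73%, and with no length correction 70.1%, 20.5%, 5.86% and 3.49%. Semaphorin and ephrin genes came first and second on each scale, while the order of the Slit and netrin systems turned with coding length. The share of ligands in the sum, an alternative added after the data were seen, went from 50.4% to 48.7% with the longest transcript, and within the semaphorin system from 48.9% to 57.7% with the longest coding sequence, both across an even split.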

Other observations

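Some guidance genes lie near each other on a chromosome, and their levels differed about as often as those of guidance genes in general. Of the 10 pairs with at most 1000 kb between them, 4 (40.0%) differed by 10-fold or more in level per kilobase of exon, against 884 of all 2211 pairs (40.0%). *SEMA3E* (chromosome 7 of GRCh38, 83363238 to 83649139) and *SEMA3A* (83955777 to 84492724) are 306.6 kb apart, and *SEMA3A* was 67.4 times as high. *EPHA8* (chromosome 1, 22563489 to 22603595) and *EPHB2* (22710839 to 22921500), 107.2 kb apart, differed 93.3-fold in favour of *EPHB2*. *PLXNB3* and *PLXNA3* on the X chromosome, 678.9 kb apart, differed 72.3-fold in favour of *PLXNA3*. *EFNA4* and *EFNA3*, 9.28 kb apart on chromosome 1, differed 10.3-fold, with the exon overlap of both genes by a readthrough gene given above. Per kilobase of coding sequence *EFNA4* was at 2495 and *EFNA3* at 324.8, less than 10-fold apart. The place of this pair among the 4 thus depends on the length used. The smallest gap in level was between *EPHB6* and *EPHA1* on chromosome 7, at 1.36-fold. These pairs were chosen after their values were seen, the values have no error, and no cause was tested.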
